A study of Mus musculus with 89 samples.

Results

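Among 89 single cells sorted from the dentate gyrus of adult mice, the deposited table puts 18 in the class aNSC, read here as activated neural stem cell. The sets compared here were chosen by 1 measured value, the count of Pdgfra, the platelet-derived growth factor receptor that marks oligodendrocyte precursor cells. Cells with 10 or more counts made a Pdgfra-positive set of 7 cells (4 from 2-month and 3 from 4.5-month mice). The other 11 cells (7 and 4) made the Pdgfra-negative set. The split was not close to its threshold: the positive cells held 531 to 3057 Pdgfra counts, and all 11 negative cells held 0. Elsewhere in the series, the 60 qNSC cells (read as quiescent neural stem cell) and the 11 IPC cells (read as intermediate progenitor cell) held at most 1 Pdgfra count each.

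All mice were homozygous carriers of the Nestin:CFPnuc transgene (line B6.Cg-Tg(Nes-CFP)1Enik/J on a C57BL/6 background), in which the Nestin promoter drives a nuclear cyan fluorescent protein. Live cells were sorted singly into wells after dissociation, amplified with a full-length template-switching kit and sequenced. Neither treatment nor genotype differed between the ages, and no label gives the sex or the animal of a cell, nor how the classes were assigned. Sex-linked transcripts divided with age: Xist or Tsix reached 10 counts in 6 of 7 aNSC cells of 4.5 months and in none of 11 of 2 months, and at least 1 of the Y-linked Uty, Kdm5d, Ddx3y and Eif2s3y in 9 of 11 cells of 2 months and in none of 7 of 4.5 months. Both sets show this division, so age and sex cannot be told apart. The cell numbers in the sample titles, whose meaning is not given in the sources used here, also differ between the sets: 5 of 7 positive and 0 of 11 negative cells are numbered 81 to 92, and 0 of 7 and 9 of 11 are numbered up to 62. Whether these numbers mark a plate or batch is not known, and their part in the differences was not tested. Each age was taken as 1 sample. Cells of 1 age may share an animal, so values are described over cells and no p-value is given. No caller of doublets was run, and their part was not tested.

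As background, oligodendrocyte precursors are dividing glial cells of the whole brain, the dentate gyrus included. They depend on platelet-derived growth factor for survival and division, receive synapses from neurons, and give rise to the oligodendrocytes that make myelin. Their identity rests on the transcription factors Olig1, Olig2 and Sox10. Stem cells of the dentate gyrus are radial, astrocyte-like cells that carry Sox9, Hopx, Gfap and Id4, and they form granule neurons by way of intermediate progenitors.

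Total counts per cell ran from 723448 to 1597526 (median 944913) in the Pdgfra-positive cells and from 252274 to 1896072 (median 798669) in the Pdgfra-negative cells. All of the 4 cells under 500000 counts were Pdgfra-negative cells of 2 months. Genes with a read numbered 4484 to 6046 and 3767 to 5672 per cell. Levels are CPM, counts per 1000000 counts of a cell. A difference is the mean log2(CPM + 1) of the positive cells minus that of the negative cells, so it understates changes of low genes. A gene counted as measured where 40% or more of the positive or of the negative cells had a read, which 7010 of 24411 genes reached. It was called higher or lower by size alone, from 3 conditions in 1 direction: the difference had to be 2 or more, the summed CPM had to differ 2-fold or more, and each age alone had to show a difference of 1 or more. A gene read in 1 set only was thus measured through that set and could be called in 1 direction only. Over all measured genes the median difference was 0.70, so the centre of all genes lay towards the Pdgfra-positive cells, whose median depth was also higher. With every cell thinned to 252274 counts the median difference was 0.76, and 947 of the higher and 467 of the lower genes below stayed called.

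By this rule 1040 of 7010 measured genes were higher in the Pdgfra-positive cells (14.8%) and 509 were lower (7.26%). Single cells varied widely: the larger of the 2 SDs over cells had a median of 3.52 on the log2 scale, against a median absolute difference of 1.43. The difference exceeded that larger SD for 459 of the higher genes and 183 of the lower genes. A stricter description asks that the CPM ranges of the sets do not overlap. It held for 40 genes in the higher direction (0.571%) and 7 in the lower direction (0.0999%). Since every gene was read in the cells that the rule sorted, these counts describe the sets and do not test them.

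The 5 genes taken as markers of the Pdgfra-positive set were Pdgfra itself, Sox10, Olig2, Neu4 and Lhfpl3, chosen with earlier results of these data known. Pdgfra (GRCm38 chromosome 5, 75152292 to 75198215, plus strand) stood at 644 CPM in the lowest, 887 in the median and 2299 in the highest positive cell. Within the set the 3 cells of 4.5 months held 651, 734 and 1141 CPM and the 4 cells of 2 months 644, 887, 1473 and 2299 CPM. The ages overlapped, and each had cells near the lowest value. Sox10, the transcription factor that specifies the oligodendrocyte lineage (chromosome 15, 79154908 to 79165240, minus strand), ranged over 109, 300 and 489 CPM (lowest, median and highest). It had no count in any negative cell. Neu4, a sialidase that trims sialic acid from glycans (chromosome 1, 94020451 to 94028334, plus strand), ranged over 247, 419 and 1476 CPM against 0. Lhfpl3, a membrane protein of the tetraspan family (chromosome 5, 22746059 to 23275597, plus strand), ranged over 950, 1442 and 2232 CPM against 0. The sets did not overlap for any of these 5 genes. For Pdgfra this is fixed by the rule, and the others were chosen with these data known, so it is no test.

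Olig2, the partner factor of Olig1 (chromosome 16, 91225457 to 91228677, plus strand), ranged over 506, 844 and 1941 CPM in the positive cells. In the negative cells the median was 0 and the highest value 109 CPM, with 10 or more counts in 2 of 11. Summed over each set, Olig2 stood at 1038 CPM (95% Poisson interval 1015 to 1062) against 16.9 CPM (14.2 to 19.9), a ratio of 61.5. Lhfpl3 was at least 4237-fold higher, Neu4 at least 1828-fold and Sox10 at least 844-fold, with 3 counts over the negative set as the floor. These intervals and floors cover counting error only, because the reads carry no molecular identifiers.

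Outside the 7 cells, Sox10, Neu4, Lhfpl3 and Gpr17 had no cell with 10 or more counts among the other 82, which allows a share of up to 3.66% of cells by counting error alone, with the animals of these cells unknown. Olig1 and Olig2 were less restricted. Of the 60 qNSC cells, 23 held 10 or more counts of Olig1 and 8 of Olig2.

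Promoter sequence was set beside 2 of the genes that had no count in the negative cells, to show the DNA next to their start sites. Both were the windows with a full 250 bases before the annotated start. It was taken from the RefSeq promoter table (GRCm38.p6), which held 98 of the 139 genes named by the rule, and only the bases before the annotated transcript are printed. Capitals mark matches to 4 motifs searched on both strands: the E-box letters CAGCTG and CATCTG, a kind of site that Olig2 and related factors can bind, and the Sox letters ACAATG and ACAAAG.
Pdgfra, chr5:75152001-75152250, plus strand: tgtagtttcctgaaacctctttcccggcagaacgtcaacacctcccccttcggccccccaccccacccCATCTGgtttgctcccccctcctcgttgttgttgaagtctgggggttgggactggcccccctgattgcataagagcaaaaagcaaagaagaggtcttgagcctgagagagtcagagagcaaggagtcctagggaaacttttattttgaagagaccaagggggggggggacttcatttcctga
Lhfpl3, chr5:22745804-22746053, plus strand: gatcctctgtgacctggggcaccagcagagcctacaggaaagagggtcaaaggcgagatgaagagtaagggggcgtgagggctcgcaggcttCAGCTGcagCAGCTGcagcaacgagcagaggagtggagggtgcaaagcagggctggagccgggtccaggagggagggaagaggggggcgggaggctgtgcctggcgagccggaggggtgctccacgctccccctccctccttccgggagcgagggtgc
The Pdgfra window held 1 CATCTG and the Lhfpl3 window 2 CAGCTG. The shorter windows of Neu4 (208 bases), another gene without a count in the negative cells, and of Olig2 (157 bases) held none of the 4 motifs and are not printed. Of all 32851 promoter windows of 250 bases, 14.4% held CATCTG and 13.0% CAGCTG, with ACAATG in 10.7% and ACAAAG in 16.5%. Among 1039 windows of the genes called higher the shares were 10.7%, 13.7%, 6.06% and 13.6%, and among 521 windows of those called lower they were 8.64%, 11.9%, 4.80% and 12.1%. Only CAGCTG among the genes called higher was above its share of all windows, and a match describes letters, not a bound site.

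The identity of the set was then described with 13 lists of cell type markers. Of 18 oligodendrocyte precursor markers, 14 to 17 had 10 or more counts in each Pdgfra-positive cell, against 0 to 4 in each negative cell. All 18 were measured: 15 were called higher (83.3%, beside 14.8% of all measured genes) and none lower. The median difference was 6.73 against 0.70 for all measured genes. For 9 of the 18 the ranges did not overlap, all in the higher direction, where the share of all measured genes was 0.571%. The list contains the genes of the rule, so these counts are partly built in. Of the other members, Olig1 held the highest level per transcript length, with a median of 4436 TPM in the positive cells. It ranged over 3681, 5222 and 10245 CPM there, against 0 in the median and 212 in the highest negative cell, a ratio of summed CPM of 338. C1ql1, a secreted protein of synapses, ranged over 462, 545 and 1066 CPM against 0, 0 and 107. Matn4, a matrix protein, and Cacng4, a subunit of AMPA receptors, had no count in the negative cells and at least 57.1 and 30.5 CPM in every positive one.

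Cspg4 and Gpr17, both markers of precursors, varied among the Pdgfra-positive cells. Cspg4, the NG2 proteoglycan, stood at 692, 246, 9.55 and 732 CPM in the 4 cells of 2 months and at 3.17, 399 and 32.6 CPM in the 3 cells of 4.5 months. Gpr17, a receptor of precursors on the way to oligodendrocytes, stood at 931, 91.4, 424 and 60.2 CPM at 2 months and at 640, 0 and 516 CPM at 4.5 months. The cells that were high for one gene were not always high for the other, and each gene had both high and low cells at each age. Gpr17 and Lims2 overlap on opposite strands of chromosome 18, and the kit does not mark strand, so their reads cannot be told apart with certainty there. The same holds for Lhfpl3 and A930003O13Rik. Susd5 and Nkx2-2, also precursor markers, had 10 or more counts in only 3 and 2 of the 7 cells.

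**Figure D1:**
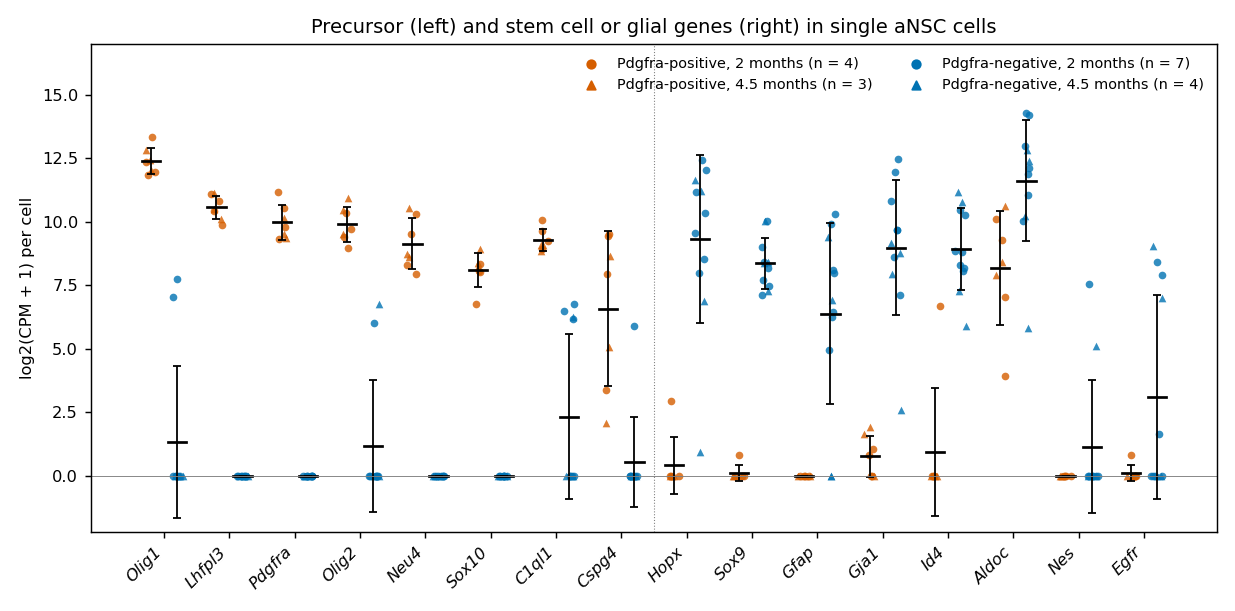
Level of 16 genes in each of the 18 aNSC cells, as log2(CPM + 1) on the vertical axis, for the 7 Pdgfra-positive (orange) and 11 Pdgfra-negative cells (blue). Circles are cells of 2 months, triangles cells of 4.5 months, and bars the mean ± SD over cells. The first 7 precursor genes do not overlap between the sets, Cspg4 spreads from 3.17 to 732 CPM, and Sox9 and Gja1 separate the sets the other way.

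Signs of further oligodendrocyte maturation were partial. Of 16 markers of committed precursors and new oligodendrocytes, 10 were measured and 5 were called higher (50%), beside 14.8% of all measured genes. Lims2 and Tmem163 had no count in the negative cells and ranged over 304, 606 and 1102 CPM and over 102, 236 and 380 CPM in the positive ones. Bcas1, a gene of new oligodendrocytes, reached 10 counts in 5 of 7 cells. Bmp4 and Enpp6, which mark committed precursors, had no count in any positive cell. Of 16 myelin markers, 6 were measured and 4 were called higher (66.7%), among them Cnp, Ugt8a and Mbp. Cnp, an enzyme of the myelin membrane, reached 10 counts in 6 of 7 positive and 4 of 11 negative cells (its exons overlap Dnajc7). Mbp, myelin basic protein, did so in 3 of 7 and 1 of 11, and its call was lost when any of 3 single positive cells was left out. It held under 9 of 13 other settings (other units, scalings, filters, ages or sets of cells). The compact myelin gene Mog stayed at or below 5.01 CPM in every cell of both sets. Cell 1 of 2 months stood apart, with 9 of 16 myelin markers at 10 or more counts against 1 to 4 in the other 6.

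Many stem cell and astrocyte genes were lower in the Pdgfra-positive cells, but not all were absent. Of 20 stem cell markers 6 to 8 had 10 or more counts in each positive cell and 8 to 16 in each negative cell, and of 16 astrocyte markers 3 to 8 and 3 to 16. The summed level of the stem cell markers ran from 2670 to 6535 CPM in the positive cells and from 8641 to 55328 CPM in the negative cells. Of 17 measured genes of the quiescent stem cell and radial glia list, 9 were lower (52.9%) and none higher, with a median difference of -3.16. Among all measured genes 7.26% were lower and 14.8% higher. Sox9, a transcription factor of glial stem cells, had 1 count in 1 of the 7 positive cells, while the negative cells ranged over 139, 329 and 1042 CPM. Hopx, a marker of quiescent stem cells, reached 6.77 CPM in 1 positive cell and was 0 in the other 6. In the negative cells it ranged over 0.913, 1307 and 5498 CPM, so the sets overlapped through 1 negative cell. Gfap, the astroglial filament, was 0 in all 7 cells and reached 10 counts in 9 of 11 negative cells, at least 595-fold lower. Id4, an inhibitor of differentiation factors, reached 10 counts in 1 of 7 and in 11 of 11. Clu, Aldoc, Slc1a3 and Thrsp were also called lower, although Aldoc was not by the cells of 4.5 months alone, nor without the positive cell 1, the negative cell 3 or the negative cell 4 of that age.

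Nestin, whose promoter drives the reporter used for the sort, had no Nes count in any Pdgfra-positive cell. Among the negative cells it reached 10 counts in 2 of 11, and it did so in 1 of 60 qNSC and 1 of 11 IPC cells. No class had more than 2 cells with 10 or more Nes counts. Vim, another filament of stem cells, had 10 or more counts in 3 of 7 and 5 of 11 cells, and Sox2 in 4 of 7 and 8 of 11. Hes5, a Notch target, had them in 6 of 7 and 8 of 11. None of Vim, Sox2 and Hes5 was called. Egfr, the receptor that marks activated stem cells, reached 10 counts in none of 7 and in 4 of 11. It was called lower by a difference of -2.98, a call that held under 9 of the 13 other settings.

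Among astrocyte markers 8 of 14 measured genes were lower (57.1%) and 2 were higher (14.3%), beside 7.26% and 14.8% of all measured genes. Gja1, the connexin of astrocyte gap junctions, was at or below 2.76 CPM in the positive cells and between 5.01 and 5756 CPM in the negative ones, where 10 of 11 had 10 or more counts. Mlc1 and Slc1a2, a membrane protein and the main glutamate transporter of astrocytes, were lower by differences of -7.79 and -4.33. S100b went the other way, at 262, 350 and 835 CPM against 0, 0 and 352, and was not called by the cells of 2 months alone. Gpc5 was the other gene called higher, a call lost when any of 9 single cells was left out and held under 6 of 13 other settings. Cst3, an abundant secreted protease inhibitor, was lower in every positive cell (580, 914 and 1042 CPM) than in any negative one (1159, 6559 and 10056 CPM). Ptprz1 and Fabp7, which precursors and stem cells both express, were high in both sets, with medians of 1742 and 723 CPM against 1724 and 444, and neither was called.

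Few markers of other cell types reached 10 counts in the Pdgfra-positive cells. No ependymal or red blood cell marker reached 10 counts in any of them, and at most 2 of 10 endothelial, 2 of 12 mural and 1 of 12 microglial markers did. Of 12 fibroblast and leptomeningeal markers, a list that includes Pdgfra, 1 or 2 reached 10 counts. The summed level in a positive cell was at most 71.9 CPM for the endothelial markers, 735 CPM for the mural markers (which include Cspg4) and 429 CPM for the microglial markers, of which 10 of 12 were at 0 in all 7. In the negative cells it reached 7397, 14159 and 377 CPM. Of 15 neuroblast and granule neuron markers, 0 to 4 had 10 or more counts in a positive and 0 to 2 in a negative cell, with summed levels of at most 1075 and 381 CPM. Only 4 of these markers were measured, and 3 were called higher (75%, beside 14.8% of all measured genes). The 3 were Gap43, Tubb3 and Snap25, without a count in the negative cells. They had 10 or more counts in 4, 3 and 1 of the 7 positive cells. The calls held under 11, 8 and 6 of the 13 other settings. Dcx, a tubulin-binding protein of neuroblasts, stayed under 10 counts in the positive cells. Of 12 intermediate progenitor markers 2 were measured, with 1 called higher and 1 lower. Calb2, the higher one, reached 10 counts in 5 of 7 and 1 of 11 cells. Btg2, given below with the immediate early genes, was the lower one. Eomes had no count in the positive cells.

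In the negative set, 2 cells carried markers of other types. Cell 2 of 2 months, the deepest of all 18, had 10 or more counts for 7 of 10 endothelial and 9 of 12 mural markers. Cell 2 of 4.5 months had them for 6 of 10 ependymal markers and for 8 of 20 stem cell markers, the fewest of the negative set. Without these 2 cells 1180 genes were higher and 540 lower, and 888 and 411 of those called with them stayed called. The number of lower genes with ranges that do not overlap was 27 without both cells and 23 without cell 2 of 4.5 months alone, against 7 with them.

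**Figure D2:**
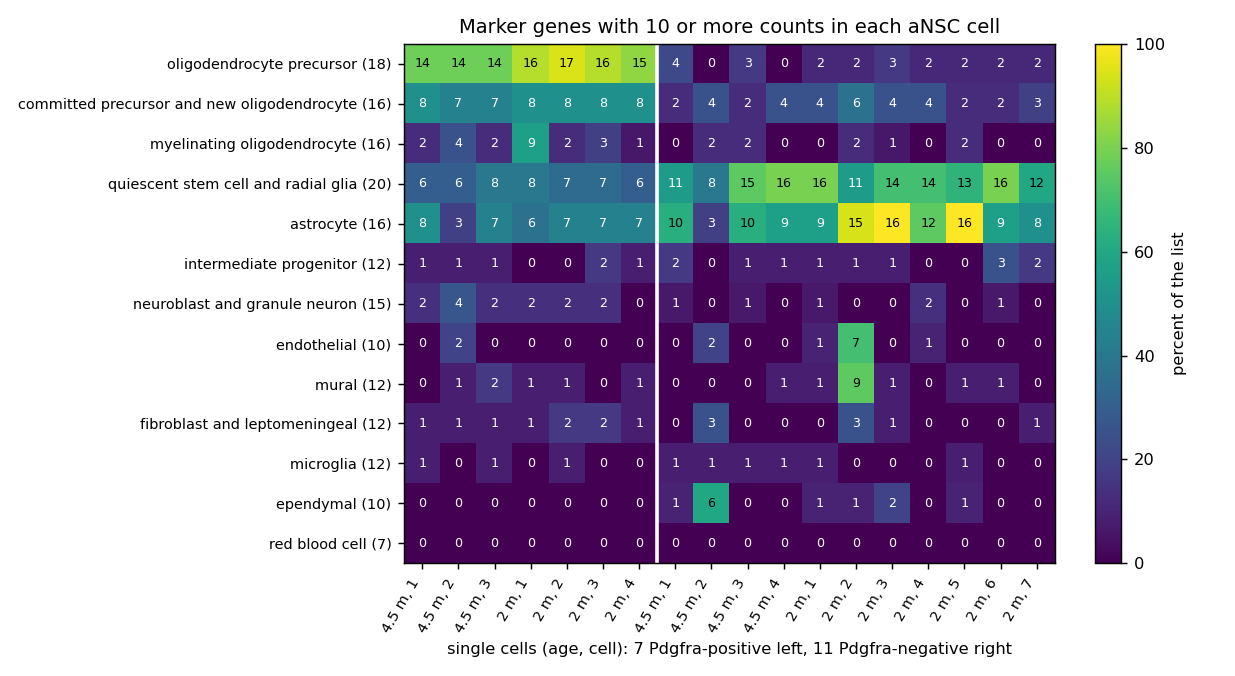
Number of marker genes with 10 or more counts in each cell (figures in the squares) for 13 cell type lists, with the list size in brackets and the colour giving the percent of the list. The 7 Pdgfra-positive cells on the left hold 14 to 17 of 18 precursor markers, and the 11 Pdgfra-negative cells on the right hold 0 to 4.

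The labels record 2 ages, which are different animals, so each age was also compared alone. Of 2097 genes higher by at least 2 at 2 months, 52.3% were higher by at least 1 at 4.5 months and 20.1% were lower by at least 1. Over all measured genes, 40.9% were higher by at least 1 at 4.5 months. Of 859 genes lower by at least 2 at 2 months, 52.6% were lower by at least 1 at 4.5 months. Another 21.9% were higher by at least 1 there. Of all measured genes, 29.1% were lower by at least 1 at 4.5 months. Genes whose ranges do not overlap over all cells must have 1 direction at both ages, so only their sizes are given by age. Lhfpl3 differed by 10.56 at 2 months and 10.58 at 4.5 months, Sox10 by 7.80 and 8.52, and Sox9 by -8.08 and -8.52. Over the measured genes, the Spearman correlation between 2 Pdgfra-positive cells had a median of 0.31 (0.23 to 0.42, 21 pairs). Between 2 negative cells it was 0.30 (0.24 to 0.40, 55 pairs), and between cells of different sets 0.22 (0.15 to 0.31, 77 pairs). For each of the 18 cells the most similar cell was in its own set. These correlations run over genes, which are not independent, and include the genes that define the sets.

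**Figure D3:**
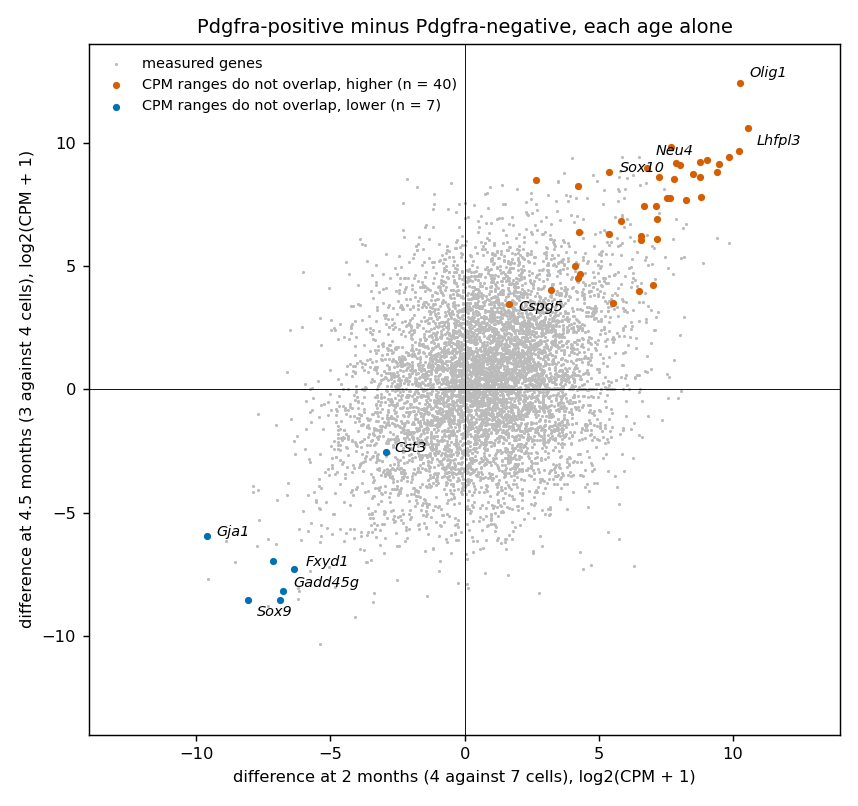
Difference in mean log2(CPM + 1), Pdgfra-positive minus Pdgfra-negative, at 2 months (horizontal axis) and at 4.5 months (vertical axis) for 7010 measured genes (grey). Genes whose CPM ranges do not overlap between the sets are coloured, 40 higher in orange and 7 lower in blue, and their place in the quadrants of 1 direction is fixed by that choice.

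Beyond the marker lists, several of the 40 genes were among the largest differences. Cdo1, an enzyme of cysteine breakdown, was at 451, 955 and 1367 CPM against 0 (difference 9.66). Tmem255a and Tmem255b, related membrane proteins, differed by 8.61 and 8.46, and Brinp3 by 8.56. Pllp, plasmolipin of myelin membranes, was at 202, 761 and 995 CPM against 0, 0 and 86.0, and Qpct, which modifies the start of secreted peptides, was at 122, 551 and 2824 CPM against 0, 0 and 119. Serpine2, a secreted protease inhibitor, was named after its values were seen for its high level: 3845, 4584 and 8097 CPM against 0, 268 and 3669. In the same way Stmn3, Rtn1 and Basp1, known from neurons, differed by 6.26, 5.74 and 6.74 and had at least 149, 471 and 56.7 CPM in every positive cell. Tmem255a, Tmem255b, Sulf2, Tmem163 and Snx22 share exon sequence with neighbouring genes, so their counts are less certain.

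In the lower direction the 7 genes were Sox9, Gja1, Gstm1, Gadd45g, Anxa5, Fxyd1 and Cst3. Gstm1, a detoxifying transferase, was at 0, 3.17 and 107 CPM against 124, 2090 and 5490. Gadd45g, a growth arrest gene, was at or below 0.752 CPM against 26.2, 208 and 1380. Fxyd1, a regulator of the sodium pump, was at or below 1.06 CPM against 36.4, 105 and 238. Lix1, Tmem47, Pon2, Pcx and Pdlim4 also had differences below -6 but overlapped, because at least 1 negative cell held little or none of them.

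The transcription factors of the lineages followed the same division. Of 15 measured oligodendrocyte lineage factors, 8 were higher and 1 lower (53.3% and 6.67%, median difference 2.28), beside 14.8% and 7.26% of all genes. The higher factors besides Olig1, Olig2 and Sox10 were Sox8, Sox6, Sox3, Zfp488 and Etv5. Sox8, a relative of Sox10, ranged over 42.3, 213 and 535 CPM against 0, 0 and 695, with the highest value in a negative cell. Hes6, a helix-loop-helix factor also found in neuronal progenitors, was the lower one, with 10 or more counts in 1 of 7 and 8 of 11 cells. Myrf, the factor that starts the myelin program, reached 10 counts in 1 of 7. Of 22 measured stem cell factors, 6 were lower (27.3%) and none higher (median -1.82), led by Hopx, Sox9 and Id4. Without the 2 negative cells that carried markers of other types, 5 of the lineage factors were higher, and the calls of Sox8, Sox3 and Etv5 were lost.

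Of the PDGF genes, the ligand Pdgfa reached 10 counts in 1 of 7 positive and 2 of 11 negative cells, and Pdgfb and Pdgfrb in none of the 7. Of 24 measured components of receptor signalling, 5 were higher and 2 lower (median 0.93), shares of 20.8% and 8.33% beside the 14.8% and 7.26% of all genes. Fyn, a Src family kinase active in oligodendrocyte maturation, was at 1.25, 364 and 1261 CPM against 0, 2.43 and 344. Hras, a small GTPase of the Ras pathway, was at 26.6, 117 and 236 CPM against 0, 0 and 98.9. Akt2 was 0 in all 7 positive cells and reached 10 counts in 7 of 11 negative ones. Of 12 measured feedback regulators and targets of receptor kinases, 5 were higher (41.7%) and none lower (median 2.27). Spry1, an inhibitor induced by receptor signalling, was at 107, 282 and 775 CPM against 0, 0 and 351, with 10 or more counts in 7 of 7 and 3 of 11. Etv5, a transcription factor downstream of the Ras pathway, was at 147, 241 and 436 CPM against 0, 0 and 640, a call that held under 10 of 13 other settings and was lost with thinned counts.

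Other receptor kinases were mixed, with 3 of 14 measured genes higher (21.4%) and 5 lower (35.7%), beside 14.8% and 7.26% of all genes. Fgfr1 and Fgfr2, receptors of fibroblast growth factors, reached 10 counts in 1 and 0 of 7 positive cells and in 7 and 5 of 11 negative cells. The call of Fgfr2 held under 10 of 13 other settings. Ntrk2, the receptor of brain-derived neurotrophic factor, was at 5.53, 468 and 840 CPM against 300, 1486 and 2164 CPM, a call that held under 7 of 13 other settings and was lost without the positive cell 2 of 4.5 months. Ntrk3, the receptor of neurotrophin 3, had no count in the negative cells and reached 10 counts in 4 of 7 positive cells.

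The surface and matrix of the cells differed in named families. Of 19 measured proteoglycans and matrix partners, 9 were higher (47.4%) and 3 lower (15.8%), beside 14.8% and 7.26% of all measured genes. Vcan, versican, had no count in the negative cells and was at 0, 321 and 1115 CPM in the positive cells, with 6 of 7 above 10 counts. Bcan, brevican, was at 426, 2006 and 3069 CPM against 0, 450 and 1754. Cspg5, neuroglycan C, was at 2442, 2727 and 4306 CPM against 52.6, 989 and 1530. Its difference of 2.33 fell under the size asked for without the negative cell 2 of 4.5 months. Sulf2, which edits heparan sulfate, was at 324, 496 and 806 CPM against 0, 0 and 88.6. Tnc, Prelp and Sparc were lower; Sparc, a matrix protein of astrocytes, was at 0, 1.06 and 359 CPM against 138, 846 and 2941. Of 10 measured enzymes of glycan and sialic acid synthesis, 5 were higher (50%) and none lower (median 3.17), among them Neu4, St8sia3 and Xylt2. The call of St8sia3 was lost without the 3 cells rich in replication genes described below.

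Genes of synapses and excitability were often called higher. Those without a read in the negative cells entered these shares only through the positive cells and could only be called higher. With a read asked for in 70% of either set, the calls of Lrrtm1, Lrrtm2, Dscam, Kcnd3, Kcnd2, Scn3a and Cacna2d3 were lost. Those of Lrrtm3, Cntn1, Lrrtm4, Lrrn1, Kcnip3, Kcnj16 and Tmem163 held there. Of 33 measured genes of synaptic adhesion and guidance, 14 were higher (42.4%) and none lower, with a median difference of 2.39. Over all measured genes 14.8% were higher and 7.26% lower, with a median of 0.70. Lrrtm3, a synaptic adhesion protein, was at 0, 241 and 932 CPM without a count in the negative cells. Nxph1, a secreted ligand of neurexins outside this list, was at 357, 673 and 912 CPM, also against 0. Cntn1, contactin 1, was at 420, 1365 and 2427 CPM against 0, 0 and 242. Opcml, Lrrtm4, Lrrn1 and Sema5b were also called, and are named after their values were seen. Of 15 measured genes of the channel list, 7 were higher (46.7%) and none lower. Only 2 were higher without the positive cell 1 of 4.5 months. The 7 include Tmem163, a membrane protein also counted above among the committed precursor markers. Kcnmb4, a potassium channel subunit outside this list, had no count in the negative cells and was at 4.15, 53.8 and 273 CPM in the positive cells.

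Receptors for glutamate and GABA divided by subunit. Of 14 measured glutamate receptor genes, 5 were higher (35.7%) and 3 lower (21.4%), beside 14.8% and 7.26% of all measured genes. Gria3, an AMPA receptor subunit, was at 0, 289 and 1256 CPM against 0 in all negative cells, while Gria1, another subunit, was at 0 in all positive cells and reached 10 counts in 4 of 11. The call of Gria3 was lost without the cells rich in replication genes, and that of Gria1 held under 10 of 13 other settings. Grm5, a metabotropic receptor, reached 10 counts in 5 of 7 and 0 of 11, with its call lost likewise without the cells rich in replication genes. Among 17 measured GABA receptors and transporters, 4 were higher (23.5%) and 5 lower (29.4%). Gabra3, a GABA-A receptor subunit, reached 10 counts in 5 of 7 cells and stayed at or below 0.527 CPM in the negative ones. The glutamate transporters differed in direction. Slc1a1, the neuronal type, was at 0, 382 and 613 CPM against 0, 0 and 262. Slc1a3, the glial type, had a median of 237 CPM and a highest value of 1031 CPM against 17.5, 6858 and 16053 CPM (lowest, median and highest).

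Metabolic genes showed more lower than higher calls, whereas over all measured genes 7.26% were lower and 14.8% higher. Of 22 measured genes of fatty acid oxidation, 7 were lower (31.8%) and none higher, with a median difference of -1.08. Acsl3, which activates long fatty acids, was at 0, 2.00 and 118 CPM against 5.01, 1380 and 4126. Acaa2, the last enzyme of the mitochondrial cycle, reached 10 counts in 0 of 7 and 8 of 11. Of 24 measured genes of cholesterol and fatty acid synthesis, 5 were lower (20.8%) and none higher. The count was 8 lower without the positive cell 2 of 4.5 months. Sc5d and Fdft1, enzymes of sterol synthesis, reached 10 counts in 0 and 3 of 7 cells and in 8 and 9 of 11. Of 21 measured genes of glycolysis, 5 were lower (23.8%) and none higher, while the median difference was near 0 (-0.13). Only 3 remained lower without the positive cell 1, the negative cell 3 or the negative cell 4 of 4.5 months, each left out alone. Ribosomal protein genes gave 1 higher and 1 lower call among 81 measured.

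**Figure D4:**
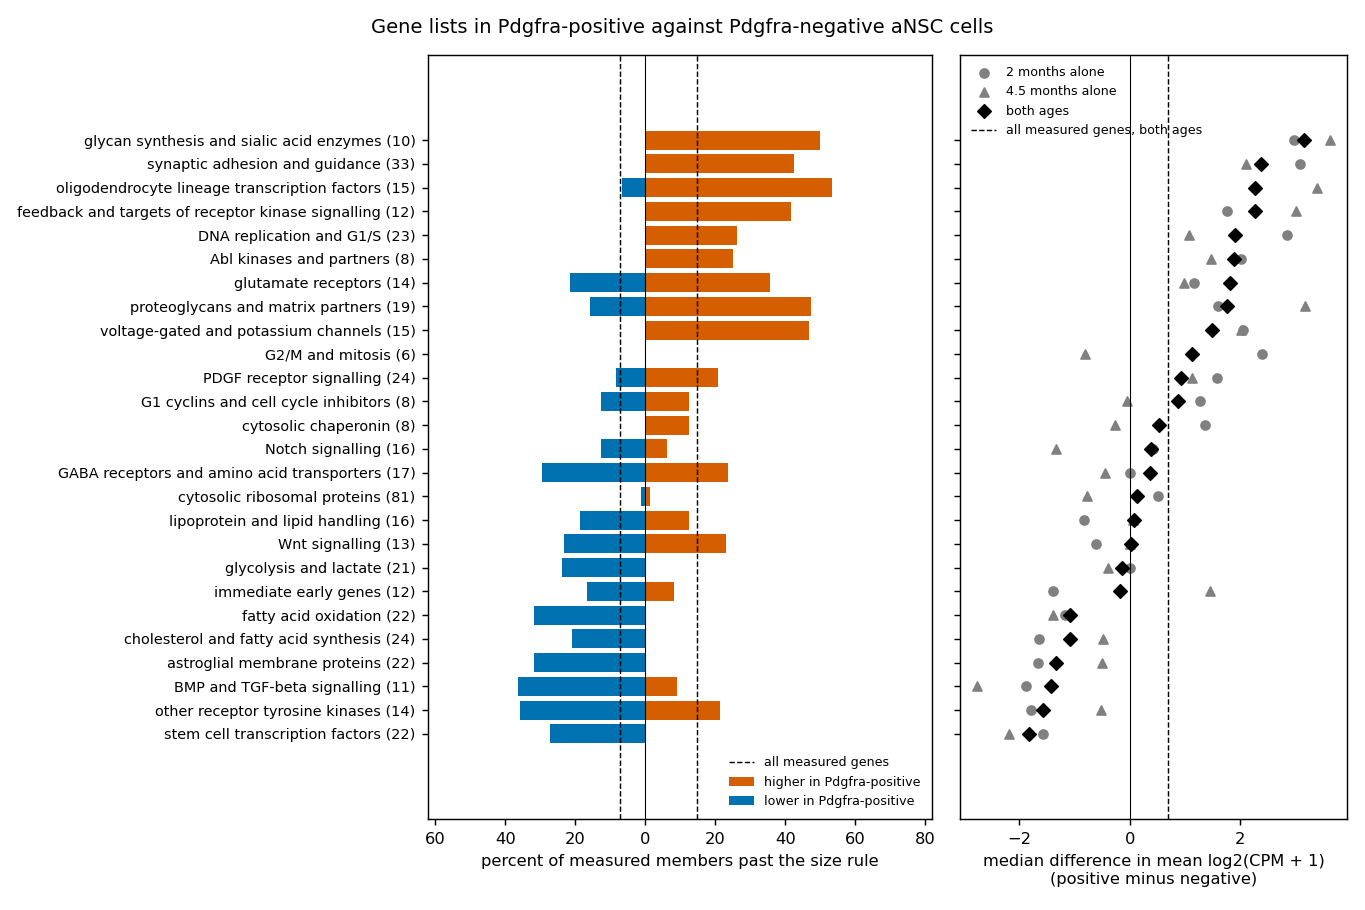
Left, percent of the measured members of each gene list (number in brackets) past the size rule, higher to the right and lower to the left, with dashed lines at the 14.8% and 7.26% of all measured genes. Right, median difference of each list over both ages (diamonds), 2 months (circles) and 4.5 months (triangles); lists of synaptic adhesion and of glycan enzymes lie above the median of all genes, and those of stem cell factors and fatty acid oxidation below it.

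Division genes split the Pdgfra-positive cells among themselves. Cells 2 and 3 of 2 months had 10 or more counts for 40 and 39 of 43 genes of DNA replication and the G1/S transition. The other 5 cells had 3 to 10. The same 2 cells had 27 and 25 of 50 genes of G2/M and mitosis, against 1 to 4. Mki67, a marker of cycling cells, stood at 420 CPM in cell 3 and 7.61 CPM in cell 2 and at 0 in the other 5. In the negative set 1 cell, cell 7 of 2 months, had 37 of 43 and 20 of 50, and the other 10 had at most 10 and 4. At least 50% of the G1/S list was thus reached in 2 of 7 positive, 1 of 11 negative, 0 of 60 qNSC and 7 of 11 IPC cells. Both positive cells kept 17 and 16 of 18 precursor markers.

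Over the whole set, 6 of 23 measured G1/S genes were called higher (26.1%, beside 14.8% of all measured genes). Without those 3 cells 1 was, and the calls of Mcm4 and Prim1 were among those lost. The count was 3 without either positive cell alone and 10 without the negative cell. The D cyclins differed in direction. Ccnd1 reached 10 counts in 4 of 7 and 1 of 11 cells (difference 2.96, lost without cell 4 of 2 months), although its exons overlap those of LTO1. Ccnd2 did so in 2 of 7 and 10 of 11 (difference -5.44). Abl1, the tyrosine kinase whose family was among the lists, reached 10 counts in 4 of 7 and 2 of 11 cells and was not called, with a difference of 2.41.

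**Figure D5:**
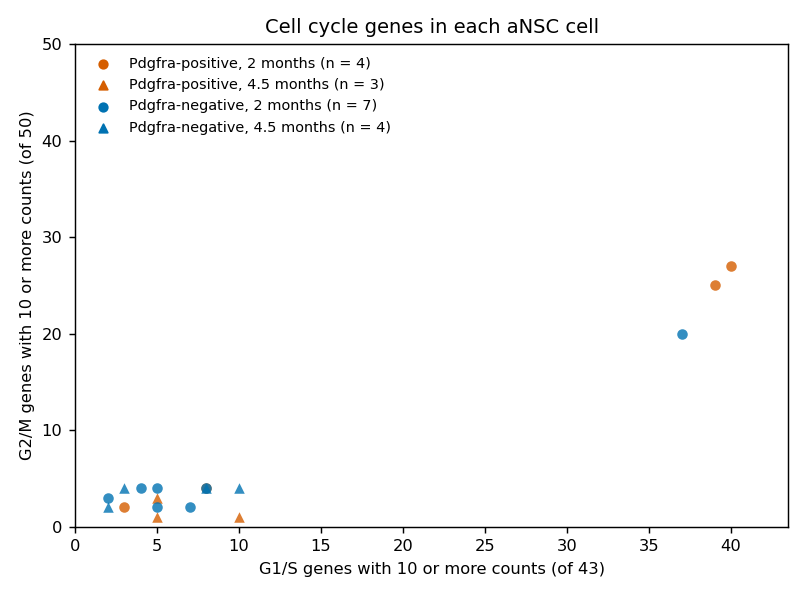
Genes with 10 or more counts in each aNSC cell, of 43 G1/S genes (horizontal axis) and 50 G2/M genes (vertical axis). 2 of the 7 Pdgfra-positive cells (orange) and 1 of the 11 Pdgfra-negative cells (blue) lie apart at 37 to 40 G1/S genes, all from mice of 2 months.

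Between the ages, the 4 Pdgfra-positive cells of 2 months and the 3 of 4.5 months were set side by side as a description, since each age is 1 sample and the sex markers divide in the same way. All 3 cells of 4.5 months held Xist or Tsix and 3 of the 4 of 2 months a Y-linked gene, so neither age nor sex can be named as what these genes go with. Of 6201 genes measured in these cells, 211 had higher values in every cell of 2 months (3.4%) and 135 in every cell of 4.5 months (2.18%). Genes that do not differ can also separate 4 cells from 3 by order alone, and how many do was not tested. Tnr, Nlgn3, Mcm7, Id2 and Hk1 below were picked for such separation, so they are examples and not evidence of a difference. Tnr, tenascin R of the perineuronal matrix, was at 96.4 to 298 CPM at 2 months and at 0 to 65.1 CPM at 4.5 months. Nlgn3, a synaptic adhesion protein, was at 45.7 to 262 CPM against 0. Mcm7, a replication helicase subunit, was at 145 to 933 CPM against 0 to 69.1, including the 2 cells of 2 months without the replication program. In the other direction Id2, an inhibitor of differentiation factors, was at 0 to 397 CPM at 2 months and at 399 to 561 CPM at 4.5 months. Hk1, hexokinase 1, was at 0 in all 4 cells of 2 months and at 26.3 to 158 CPM at 4.5 months. Pdgfra, Olig1, Olig2 and Sox10 overlapped between the ages.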

How the data were processed

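RNA of 89 single cells was measured by full-length sequencing. The authors deposited estimated counts per gene and cell and a table of TPM (length-scaled abundance), made with RSEM and STAR on mm10, per the submitters' processing notes; versions are not given in the sources used here. A further deposited table gives each cell's class. A share of 4.44% of the nonzero deposited counts departed from a whole number (by more than 1e-06), and all were rounded. Counts were scaled to counts per 1000000 (CPM) and taken as log2(CPM + 1), with Python 3.11.15, numpy 2.4.6 and pandas 2.3.3. Deposited TPM, which sum to 1000000 per cell, served to compare levels between genes and as an alternative unit.

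The deposited classes and the Pdgfra count made the 2 sets. Members and gene lists (13 of cell types, 29 of pathways) were chosen with earlier results of these data known. Cells are not replicates, so no test was run, and the SD over cells is not an error between animals. Named by rule were the 5 marker genes, the 15 called genes with the largest difference each way (predicted genes, pseudogenes and sex-linked transcripts left out), the list members whose ranges do not overlap, up to 3 called members per list and direction, and 26 further genes such as Nes, Gfap and Egfr. Other list members were named after their values were seen. Positions and overlapping exons come from GENCODE M21. The counting script was run on simulated data as a check of the code, and no rate of false calls is given here. Other pseudocounts, units, scalings, filters, depths, ages and sets of cells were tried as alternatives.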

Additional observations from a re-analysis of the deposited data

Results flagged for a closer look

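Total counts, genes with a read and mean list levels of the 7 Pdgfra-positive cells were searched for single cells that stand apart from the rest. The measure was the gap to the nearest cell relative to the range of all. Of 36 values examined 4 stood apart. The lists share genes and the cells may share an animal, and how many values would stand apart by chance was not tested. The immediate early genes had a mean log2(CPM + 1) of 6.54 in cell 2 of 4.5 months, against 2.35 to 3.95 in the other 6 cells. Feedback regulators and targets of receptor kinases were highest in cell 3 of 4.5 months, at 5.60 against 3.87 to 4.43. Proteoglycans and matrix partners were lowest in cell 1 of 2 months, at 4.20 against 5.64 to 6.59; this is also the cell with 9 of 16 myelin markers. Genes of lipoprotein and lipid handling were lowest in cell 2 of 2 months, at 4.15 against 4.88 to 5.29, a cell with 40 of 43 replication genes.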

How the results depend on the processing

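With log2(CPM + 10) in place of log2(CPM + 1), 439 genes were higher and 189 lower, against 1040 and 509. With a read asked for in 70% of either set the counts were 689 and 242. Cells of 2 months alone gave 1867 and 964, and the lower count was 1480 with cells of 4.5 months alone and 765 without the 3 cells rich in G1/S genes, an alternative chosen after seeing the data. Leaving out each cell in turn gave 972 to 1114 higher and 497 to 595 lower genes. The cause of these shifts was not tested, except that a single age drops the condition on the other one. Of 126 called genes named by the rule, 70 were called under all 13 other settings and without each cell, and no called named gene changed direction. The deposited TPM kept 883 of the 1040 and 421 of the 509 genes. Without the 4 negative cells under 500000 counts 920 and 403 stayed called. No paired analysis was possible because the labels give no replicate numbers that join cells and no test was run. Cells of unknown animals, 7 against 11, limit every comparison.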

Other observations

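Ligands and receptors of the Wnt, BMP and Notch pathways, which act on stem cells of the dentate gyrus and on glia, were called in both directions. Over all measured genes 14.8% were called higher and 7.26% lower, the shares to set beside those below. Of 13 measured Wnt genes, 3 were higher (23.1%) and 3 lower (23.1%), with a median difference of 0.03. Fzd9, a Wnt receptor, was at 85.0, 308 and 816 CPM in the Pdgfra-positive cells (lowest, median and highest) against 0, 0 and 204 CPM, with 10 or more counts in 7 of 7 and 3 of 11 cells. Dkk3, a secreted protein of the Dickkopf family, stayed at or below 1.06 CPM in the positive cells and reached 10 counts in 7 of 11 negative ones. Of 11 measured BMP and TGF-beta genes, 1 was higher (9.09%) and 4 were lower (36.4%), with a median of -1.43. The higher one was the ligand Bmp7, at 31.7, 83.8 and 231 CPM against 0, 0 and 65.7 CPM. Id1, a target of BMP signalling, reached 10 counts in 0 of 7 and 5 of 11 cells, a call that held under 8 of 13 other settings and was lost by the cells of 2 months alone and without the 2 negative cells that carried markers of other types. Of 16 measured Notch genes, 1 was higher (6.25%, under the share of all genes) and 2 were lower (12.5%). Dner, a Notch-related membrane protein, reached 10 counts in 5 of 7 and 2 of 11 cells, and the receptor Notch2 in 0 of 7 and 5 of 11, a call that held under 10 of 13 other settings.

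Genes of lipoprotein and lipid handling had 2 higher (12.5%) and 3 lower calls (18.75%) among 16 measured, beside 14.8% and 7.26% of all genes. Clu, the secreted chaperone clusterin, was at 155, 561 and 1369 CPM against 629, 5598 and 11479 CPM. Immediate early genes, which respond quickly to stimulation and to handling, had 1 higher (8.33%) and 2 lower calls (16.7%) among 12 measured. Btg2, an antiproliferative gene, reached 10 counts in 1 of 7 and 7 of 11 cells. The calls of Fzd9, Dkk3, Bmp7, Dner, Clu and Btg2 held under all 13 other settings and without each cell.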
